A study of Rattus norvegicus with 56 samples.

Results

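The microRNAs (miRNAs) rno-miR-204-5p, rno-miR-211-5p, rno-miR-448-5p and rno-miR-764-5p of the rat hippocampus are described here, 4 of the 367 miRNAs listed in the count table of the series. They were chosen by their joint variation between libraries in these same data, so that variation is given as a description, with no test. Small RNA was sequenced in 56 hippocampal libraries, each from a separate rat. Rats received a traumatic brain injury (TBI) by fluid percussion, a pressure pulse of fluid onto the exposed dura, or sham surgery, and tissue was taken at 24 h, 2 w, 1 m, 2 m, 3 m, 6 m or 1 y, with 4 TBI and 4 sham rats at each of the 7 intervals. The labels give no strain, age, side of the brain or dissection details, they name no drug or transgene, and all rats of an interval share that interval, so that time after surgery and age cannot be told apart. Rats are named by their labels (X57, tube.20 and so on).

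A mature miRNA of about this length guides the silencing machinery to messenger RNAs, chiefly through its seed near the 5′ end, and many miRNAs are cut from introns of longer transcripts and are therefore often made where the host gene is transcribed. miR-204 and miR-211 are sister miRNAs from introns of the cation channel genes Trpm3 and Trpm1, and miR-448 and miR-764 come from introns of Htr2c, a serotonin receptor gene. Trpm3 and Htr2c are strongly transcribed in the choroid plexus, the secretory epithelium that lies in the ventricle against the hippocampus, and Htr2c is also transcribed in neurons.

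In the RefSeq annotation of GRCr8, Mir204 lies inside Trpm3, Mir211 inside Trpm1, and Mir448 and Mir764 inside Htr2c. The table of RefSeq mature sequences held 3 of the 4, which are shown because the first pair differs so little that reads of one could be counted for the other. They are printed 5′ to 3′ with the seed, bases 2 to 8, in capitals. rno-miR-3552, a further miRNA of Htr2c, is shown with them because its levels are used below.

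rno-miR-204-5p: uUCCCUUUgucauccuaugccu

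rno-miR-211-5p: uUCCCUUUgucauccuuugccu

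rno-miR-448-5p: aACAUCCUgcauagugcugcca

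rno-miR-3552: aGGCUGCAggcccacuucccu

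rno-miR-204-5p and rno-miR-211-5p are both 22 bases long and shared 21 of them, the substitution being A17U, counted from 1 at the 5′ end with the miR-204-5p base first. Their seeds were identical, and no other miRNA among the 331 listed ones with a RefSeq sequence carried that seed. No other listed sequence had the seed of rno-miR-448-5p or of rno-miR-3552. The sources used here do not state how reads with a mismatch at this base were assigned, so the counts of rno-miR-211-5p, the rarer of the pair, are uncertain to that extent.

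Total counts lay between 2083604 and 12468979 in 55 libraries, and TBI rat X747 at 2 m had 69628. In that library 3 counts correspond to 43.1 CPM (counts scaled to a library of 1e+06), so its 1 read of rno-miR-448-5p and 0 reads of rno-miR-764-5p (which allow up to 43.1 CPM) carry little information. Levels below are CPM after TMM scaling, edgeR's correction for library composition. Reads were not collapsed by molecular identifiers, so this floor covers counting error only.

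The 4 miRNAs differed in abundance by orders of magnitude. Over the 52 libraries other than X747 and 3 sham libraries described next, rno-miR-204-5p had a median of 2052 CPM (range 1136 to 5009) and rno-miR-211-5p 59.5 CPM (27 to 141). rno-miR-448-5p had a median of 6.64 CPM (2.50 to 13.4) and rno-miR-764-5p 4.58 CPM (2.41 to 7.79). In reads these were medians of 33.5 for rno-miR-448-5p and 26 for rno-miR-764-5p, so a single library gives only a coarse value for the Htr2c pair. Levels of different miRNAs also carry the ligation bias of small RNA libraries, and the order of the pairs is a difference in reads.

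**Figure D1:**
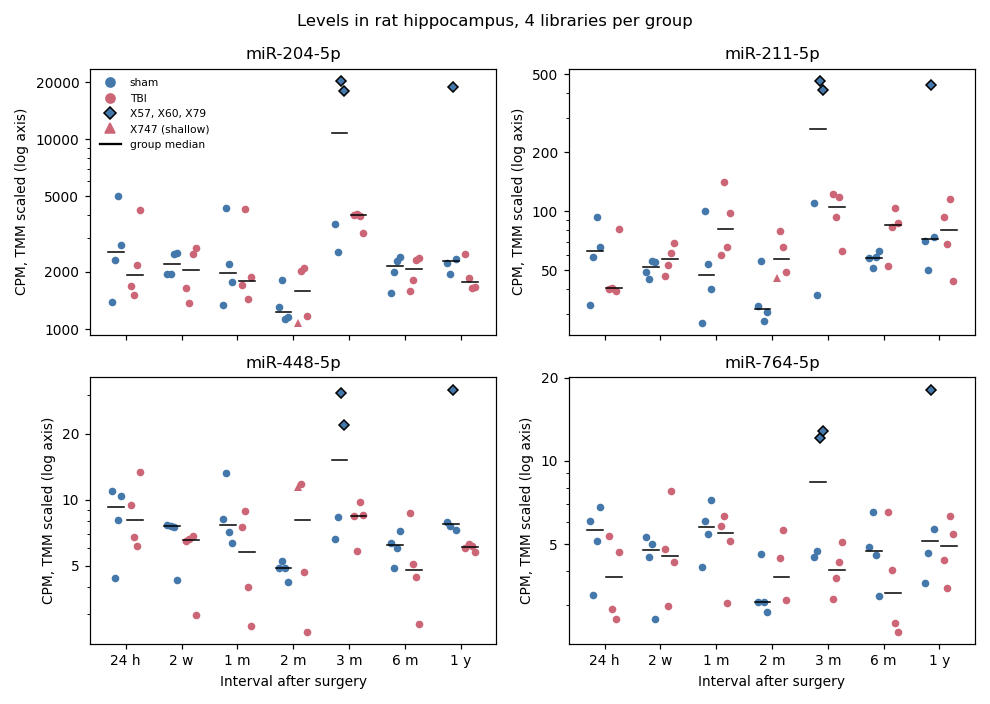
Levels of the 4 miRNAs in CPM on log axes (TMM scaled) by interval, with 1 point per rat, sham in blue, TBI in red and the group median as a line. Diamonds mark sham rats X57 and X60 at 3 m and X79 at 1 y, which lie above every other point in all 4 panels. Library X747 is too shallow to be placed for miR-448-5p and miR-764-5p, and its 0 for miR-764-5p cannot be drawn on a log axis.

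A set of 3 sham libraries stood apart, X57 and X60 at 3 m and X79 at 1 y. rno-miR-204-5p was at 20336, 17934 and 18890.2 CPM in X57, X60 and X79, while the other 2 sham rats at 3 m had 3596 and 2545 and the other 3 at 1 y had 2216, 1957 and 2326. Against the median of the other sham rats of the interval this was 6.62-fold, 5.84-fold and 8.53-fold. rno-miR-211-5p was at 463, 417 and 441 CPM in the same libraries, 6.28-fold, 5.66-fold and 6.29-fold over the other sham rats. At 3 m the other 2 sham rats had 110 and 37.5 CPM of rno-miR-211-5p, so its folds there are coarse. The Trpm-hosted pair was thus higher in each of the 3 libraries, by 5.66-fold to 8.53-fold. Because reads of one could be counted for the other, the 2 counts may not be separate measurements.

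The Htr2c pair was also high in these libraries, by smaller factors. rno-miR-448-5p was at 30.9, 22.0 and 31.9 CPM in X57, X60 and X79, or 4.13-fold, 2.94-fold and 4.2-fold. rno-miR-764-5p was at 12.1, 12.8 and 18.1 CPM, or 2.63-fold, 2.79-fold and 3.90-fold. These rest on 43 to 213 reads per library. None of the other 53 libraries reached the lowest of these 3 for any of the 4 miRNAs, but X747 is too shallow to be placed for the Htr2c pair.

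Of 244 miRNAs that passed the filter on low counts, 9 were at least 2-fold higher in all 3 libraries and 0 were at 0.5-fold or less in all 3, with median folds over all miRNAs of 0.979, 1.00 and 0.982. The 9 are the 4 members and 5 that were named after their values were seen. rno-miR-3552 was 5.80-fold, 3.89-fold and 5.50-fold higher in X57, X60 and X79. rno-miR-34b-5p, a miRNA of multiciliated epithelia, was 5.02-fold, 3.76-fold and 4.98-fold higher, and its cluster partner rno-miR-34c-5p 3.79-fold, 3.17-fold and 4.78-fold. rno-miR-483-5p, which lies inside Igf2, was 2.08-fold, 2.47-fold and 4.25-fold higher on 13 to 31 reads. The inflammation-linked rno-miR-155-5p was 2.79-fold, 2.26-fold and 2.14-fold higher on 47 to 84 reads. It was at the same time higher in TBI than in sham rats pooled over the intervals, by 1.00 ± 0.18 on the log2 scale (SE). Its adjusted p was 4.16e-05 in the quasi-likelihood test of edgeR (Benjamini-Hochberg adjustment). Its injury effect differed between intervals (adjusted p = 8.83e-05 in the same kind of test), so the pooled value does not describe each interval.

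Summed marker lists of most other cell types stood closer to the other sham rats in these 3 libraries than the 4 miRNAs did. The summed neuronal list (7 of 8 listed miRNAs passing the filter) was at 0.989-fold, 0.944-fold and 0.927-fold in X57, X60 and X79. This sum rests mainly on rno-miR-9a-5p and rno-miR-218a-5p (medians of 982085 and 213142 reads). Its members that passed ran from 0.588-fold (rno-miR-128-1-5p in X79) to 1.24-fold (rno-miR-137-5p in X60). The vessel wall list (3 of 3) was at 1.02-fold, 1.04-fold and 1.05-fold. The leukocyte and microglia list (3 of 3), mostly reads of rno-miR-150-5p, was at 0.949-fold, 1.04-fold and 0.937-fold. Within it the rare rno-miR-223-5p was at 3.06-fold in X79. Oligodendrocyte miRNAs (3 of 3) were at 0.952-fold, 1.26-fold and 1.26-fold. Red blood cell miRNAs (3 of 3) were at 0.698-fold, 1.01-fold and 1.65-fold, and the mesenchymal list, of which 1 of 2 passed, at 1.38-fold, 0.995-fold and 1.74-fold.

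Lists of epithelial and ciliated cells gave mixed values. In the multiciliated and ependymal list, in which 3 of 4 passed, rno-miR-449a-5p was at 0.802-fold, 1.13-fold and 0.923-fold, while rno-miR-34b-5p and rno-miR-34c-5p were high. None of the 4 listed members of the epithelial miR-200 family passed the filter, with at most 69 reads, and their sum, 0 to 14.5 CPM in the other sham libraries, was at 1.82-fold, 3.13-fold and 1.11-fold in X57, X60 and X79. The sensory and pineal list (rno-miR-183-5p, rno-miR-96-5p and rno-miR-182, 3 of 3) was at 0.726-fold and 0.676-fold in X57 and X60 and at 3.96-fold in X79. rno-miR-1912-5p, another miRNA of Htr2c, never exceeded 1 read. Messenger RNA markers of choroid plexus were not measured in these libraries, so a choroid plexus label rests on the hosts Trpm3 and Htr2c. Trpm1, the host of rno-miR-211-5p, gives that miRNA no such label here. In bulk tissue, more cells of a type and more RNA per cell cannot be told apart. The part of these cell types in the high levels was not tested.

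**Figure D2:**
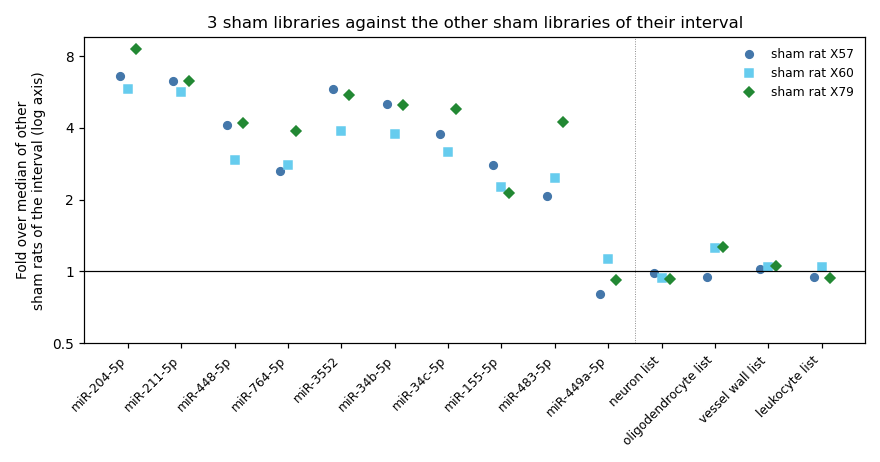
Fold of sham rats X57, X60 and X79 over the median of the other sham rats of the same interval (log axis), for the 4 miRNAs, 6 others and 4 summed marker lists. In all, 9 miRNAs lie above 2 in all 3 rats, while miR-449a-5p and the summed lists lie between 0.802 and 1.26.

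The 4 miRNAs were among the more variable ones. The standard deviation (SD) of log2 CPM around the group means over 55 libraries was 0.75 for rno-miR-204-5p and rno-miR-211-5p, 0.62 for rno-miR-448-5p and 0.52 for rno-miR-764-5p, against a median of 0.28 over 244 miRNAs, and their places from the top were 10, 11, 20 and 33. Without the 3 libraries the SDs were 0.47, 0.50, 0.50 and 0.41, at places 37, 31, 32 and 61. Counting error alone was averaged over the 55 libraries (root mean square, the 3 kept). It amounts to 0.013 for rno-miR-204-5p, 0.081 for rno-miR-211-5p, 0.25 for rno-miR-448-5p and 0.29 for rno-miR-764-5p. The spread of the Trpm-hosted pair was far larger than counting error, whereas that of rno-miR-764-5p without the 3 libraries was not much larger.

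With the 3 libraries set aside, r was higher within the Trpm-hosted and the Htr2c pair than between them. Over 55 libraries, as deviations of log2 CPM from the group means, Pearson's r was 0.92 between rno-miR-204-5p and rno-miR-211-5p (Spearman's rho 0.88) and 0.69 between rno-miR-448-5p and rno-miR-764-5p (rho 0.65). With the shallow library of X747 kept, r of the latter was 0.32 (rho 0.51). Between the pairs r was 0.52 to 0.60 and rho 0.35 to 0.39. Over the 52 libraries without X57, X60 and X79, r was 0.81 within the Trpm-hosted pair (rho 0.82) and 0.49 within the Htr2c pair (rho 0.49). Between the pairs it was then 0.21 for rno-miR-204-5p with rno-miR-448-5p, 0.15 for rno-miR-204-5p with rno-miR-764-5p, 0.12 for rno-miR-211-5p with rno-miR-448-5p and 0.06 for rno-miR-211-5p with rno-miR-764-5p. The relation between the pairs thus rested largely on those 3 libraries. Other miRNAs reached values of this size: rno-miR-204-5p then had r = 0.65 with both rno-miR-27b-5p and rno-miR-485-5p, rno-miR-211-5p had 0.65 with rno-miR-182, and rno-miR-448-5p had 0.52 with rno-miR-770-5p and with rno-miR-1224, above its 0.49 with rno-miR-764-5p. These values share libraries, scaling and depth, and carry no test because the choice used them. Within the Trpm-hosted pair, r may also reflect reads of one miRNA counted for the other, which was not tested.

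TBI and sham rats were also taken alone. In the 27 TBI libraries, which hold none of the 3, r was 0.73 within the Trpm-hosted pair, 0.52 within the Htr2c pair and 0.03 to 0.26 between pairs. In the 28 sham libraries, which hold all 3, these were 0.97, 0.82 and 0.72 to 0.79. Leaving out only the 2 libraries farthest from the median of rno-miR-204-5p, X57 and X79, gave 0.88, 0.57 and 0.29 to 0.38.

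The next highest libraries for rno-miR-204-5p were shared more with rno-miR-211-5p than with rno-miR-764-5p. They were sham rats X461 at 24 h and X795 at 1 m and TBI rats X769 at 1 m and X460 at 24 h, with 5009, 4322, 4271 and 4239 CPM. Each also had the highest rno-miR-211-5p of its group of 4, at 93.3, 101, 141 and 81.2 CPM. X795, X769 and X460 were the highest of their group for rno-miR-448-5p, at 13.2, 8.89 and 13.4 CPM, and X461 was not, at 8.09 CPM. For rno-miR-764-5p only X769 was the highest of its group, at 6.33 CPM beside 3.07 to 5.82.

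**Figure D3:**
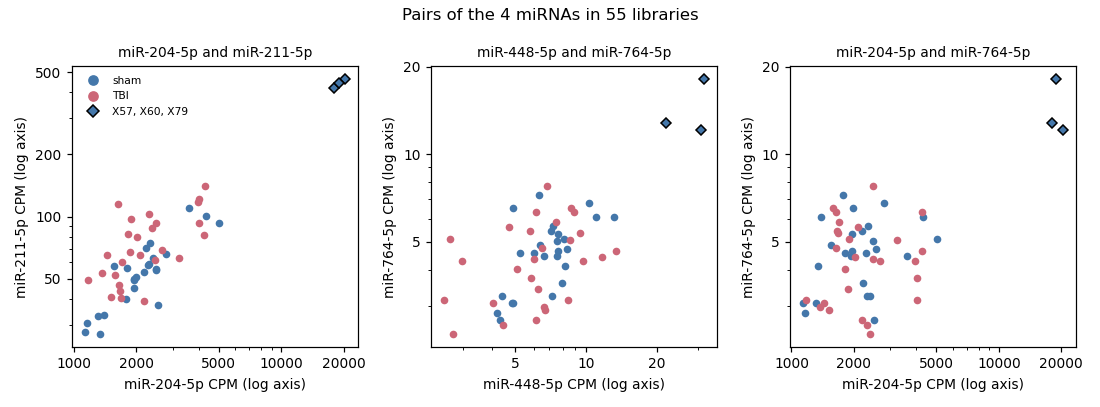
Levels in CPM on log axes in 55 libraries, for miR-204-5p with miR-211-5p, miR-448-5p with miR-764-5p, and miR-204-5p with miR-764-5p, with sham in blue and TBI in red. Diamonds are X57, X60 and X79; without them r was 0.81, 0.49 and 0.15 in the 3 panels.

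Among all other miRNAs, the 5 with the highest mean r with the 4 over 55 libraries were rno-miR-3552 (0.65), rno-miR-34b-5p (0.63), rno-miR-34c-5p (0.62), rno-miR-152-5p (0.45) and rno-miR-483-5p (0.43). Without the 3 libraries their mean r was 0.26, 0.24, 0.24, 0.28 and 0.30, at places 20, 31, 34, 15 and 13 among the others. rno-miR-3552 then had r = 0.63 with rno-miR-448-5p and 0.70 with rno-miR-764-5p, its 2 neighbours in Htr2c, and was the nearest of 243 miRNAs to each. With rno-miR-204-5p it had -0.13 and with rno-miR-211-5p -0.17. The cluster partners rno-miR-34b-5p and rno-miR-34c-5p were the reverse. rno-miR-34b-5p had r = 0.37 and 0.50 with the Trpm-hosted pair and 0.10 and -0.01 with the Htr2c pair. For rno-miR-34c-5p these were 0.38, 0.50, 0.04 and 0.02. In the multiciliated and ependymal list rno-miR-449a-5p also passed the filter. Its mean r with the 4 was -0.07 over 55 libraries and -0.09 without the 3 libraries.

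The comparison of TBI with sham rats asks whether the levels changed after injury, at each interval and over all of them. No member passed an adjusted p of 0.05 at any interval in the quasi-likelihood test of edgeR, adjusted by Benjamini-Hochberg over all miRNAs tested. Over all miRNAs the share called was 1.72% at 24 h and 0.417% at 1 m, and 0% at each of the other 5 intervals, where the Wald test of DESeq2 called 7, 1, 1, 0 and 0 miRNAs in order of time. At an unadjusted p of 0.05 the numbers of miRNAs below it were 12, 21, 42, 17, 12, 11 and 22 over the 7 intervals.

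rno-miR-204-5p, the most abundant of the 4, differed most at the intervals that hold the 3 high sham libraries. At 3 m the TBI rats had 4008, 4029, 3948 and 3212 CPM, all below X57 and X60 and 3 of them above the other sham rats. The log2 fold change was -1.5 ± 0.59 (SE, n = 4 per group, edgeR adjusted p = 0.533), and 0.30 ± 0.14 without X57 and X60 (adjusted p = 0.979). At 1 y the TBI rats had 2481, 1868, 1640.4 and 1663 CPM. The log2 fold change there was -1.74 ± 0.74 (edgeR adjusted p = 0.431), and -0.19 ± 0.14 without X79 (adjusted p = 0.526). The apparent deficit after injury therefore rested on those sham rats at 3 m, where the sign turned without them, and largely so at 1 y. At 1 y the sign stayed the same without X79, and 3 of the 4 TBI rats lay below every sham rat.

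At the other intervals the groups overlapped for rno-miR-204-5p. At 24 h, 2 w, 1 m, 2 m and 6 m the log2 fold changes were -0.26 ± 0.41, -0.11 ± 0.21, 0.03 ± 0.39, 0.22 ± 0.23 and -0.04 ± 0.16 (SE). Their edgeR adjusted p values ran from 0.835 to 0.981.

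rno-miR-211-5p, the sister miRNA, took values above sham at 1 m, 2 m and 6 m. At 1 m the TBI rats had 60.2, 141, 65.4 and 97.8 CPM and the sham rats 27, 101, 54.2 and 40.1. All 4 TBI values lay above the sham median, but X795 of the sham group lay above 3 of them. Injury over sham came to 0.79 ± 0.39 on the log2 scale (edgeR adjusted p = 0.297), and to between 0.43 and 1.18 when each rat in turn was left out.

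At 2 m the TBI rats had 45.9, 79.4, 65.5 and 49.2 CPM of rno-miR-211-5p, the first being X747 with 4 reads, and the sham rats 32.9, 56.1, 27.7 and 30.7. This was a log2 fold change of 0.74 ± 0.27 (edgeR adjusted p = 0.466). Only sham rat X777 reached the TBI range. At 6 m the TBI rats had 52.4, 82.8, 103 and 87.6 CPM and the sham rats 57.7, 51.2, 58.4 and 62.7, so that 3 of 4 TBI rats lay above every sham rat. This was a log2 fold change of 0.49 ± 0.17 (edgeR adjusted p = 0.746).

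At the 2 intervals with the high sham libraries rno-miR-211-5p pointed the other way. It had a log2 fold change of -1.34 ± 0.64 at 3 m and -1.01 ± 0.68 at 1 y. Without X57 and X60 it was 0.41 ± 0.40 at 3 m, and without X79 it was 0.29 ± 0.29 at 1 y, with adjusted p of 0.979 and 0.668 in edgeR. At 24 h it was -0.32 ± 0.34 and at 2 w 0.18 ± 0.15.

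rno-miR-448-5p gave the single case in which the TBI and sham values of a member did not overlap. At 1 y the TBI rats had 6.03, 6.26, 6.13 and 5.79 CPM and the sham rats 7.90, 7.58, 31.9 and 7.28, on 29 to 33 and 31 to 213 reads. The log2 fold change was -1.21 ± 0.50 (edgeR adjusted p = 0.431), and -0.34 ± 0.12 without X79 (adjusted p = 0.383). Over all miRNAs the groups did not overlap in 4.29%, 5.29%, 10%, 5.08%, 4.09%, 1.34% and 5.33% of miRNAs at the 7 intervals in order of time, and 1 of 28 cases among the members is near these shares. At the other intervals its log2 fold changes ran from -0.98 ± 0.48 at 3 m to 0.38 ± 0.41 at 2 m, and the value at 3 m was 0.13 ± 0.28 without X57 and X60.

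rno-miR-764-5p, the rarest, had log2 fold changes between -0.94 ± 0.41 at 3 m and 0.33 ± 0.30 at 2 m. Without X57 and X60 the 3 m value was -0.13 ± 0.30, and without X79 the 1 y value went from -0.75 ± 0.50 to 0.06 ± 0.26. Of the 4 TBI rats at 3 m, 3 lay below every sham rat, at 3.15, 3.75, 4.29 and 5.08 CPM beside 4.48, 4.72, 12.1 and 12.8 in the sham group.

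**Figure D4:**
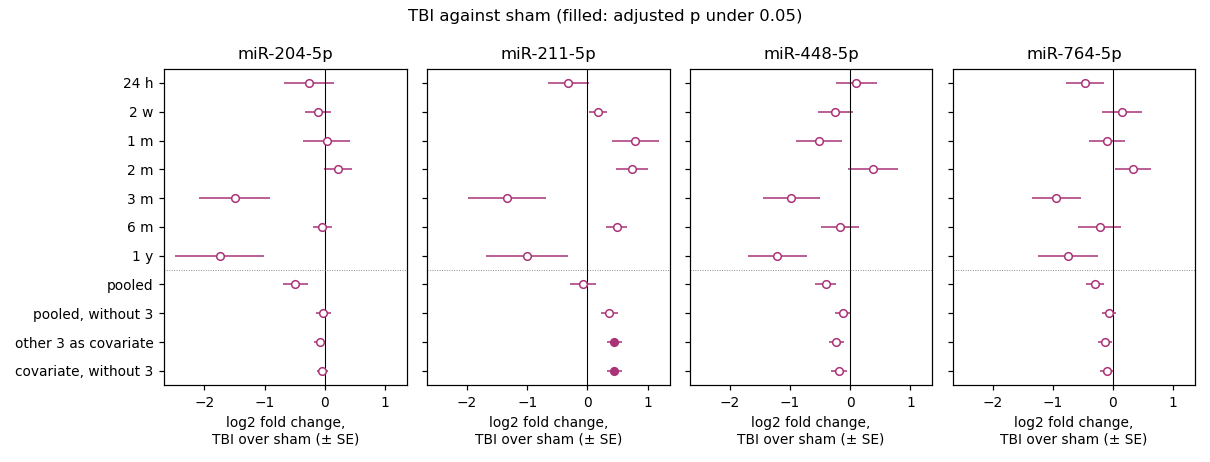
Log2 fold change of TBI over sham with its SE for the 4 miRNAs, at each interval (4 rats per group) and, below the dotted line, pooled over the intervals, without X57, X60 and X79, and with the other 3 miRNAs as covariate. The 2 filled points, both for miR-211-5p with the covariate at 0.45, are those with an adjusted p under 0.05. Leaving out X57, X60 and X79 was chosen after seeing the data.

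Pooled over the intervals in 56 libraries, with the interval in the model, none of the 4 passed the test, where 4.51% of 244 miRNAs did. The log2 fold change was -0.49 ± 0.21 for rno-miR-204-5p (edgeR adjusted p = 0.281), -0.08 ± 0.21 for rno-miR-211-5p (0.938), -0.41 ± 0.18 for rno-miR-448-5p (0.281) and -0.30 ± 0.15 for rno-miR-764-5p (0.339). Their median was -0.35, beside -0.01 over all miRNAs. Without X57, X60 and X79 the values were -0.02 ± 0.12, 0.37 ± 0.13, -0.12 ± 0.14 and -0.06 ± 0.12. The adjusted p were then 0.962, 0.135, 0.8 and 0.951, so rno-miR-211-5p changed sign and none passed.

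None of the 4 passed the test of an injury effect that differs between intervals, which 2.87% of miRNAs passed. The edgeR adjusted p was 0.336 for rno-miR-204-5p, 0.231 for rno-miR-211-5p, 0.517 for rno-miR-448-5p and 0.547 for rno-miR-764-5p.

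The level in the 28 sham rats differed between intervals for 3 of the 4, where 27.1% of 240 miRNAs passed the same test. The edgeR adjusted p was 0.00487 for rno-miR-204-5p, 0.00489 for rno-miR-211-5p, 0.0242 for rno-miR-448-5p and 0.0996 for rno-miR-764-5p. Without the 3 libraries it was 0.139, 0.380, 0.150 and 0.339, and none of the 4 passed. The call of rno-miR-448-5p also ended when sham rat X752, X57 or X60 alone was left out (edgeR adjusted p of 0.0532, 0.0641 and 0.0612). Sham rats at 2 m had the lowest sham median of all 4 miRNAs, at 1234 CPM for rno-miR-204-5p, 31.8 for rno-miR-211-5p, 4.88 for rno-miR-448-5p and 3.08 for rno-miR-764-5p.

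TBI and sham rats were also compared at a given level of the other members. The model holds, beside the interval, the mean log2 CPM of the other 3 members as a covariate, over 55 libraries without X747. Without the 3 high sham libraries, rno-miR-211-5p had r of only 0.12 with rno-miR-448-5p and 0.06 with rno-miR-764-5p. The covariate may therefore leave part of the joint variation of rno-miR-211-5p in place. rno-miR-211-5p was higher in TBI rats at a given level of the other 3, by 0.45 ± 0.13 on the log2 scale (SE, edgeR adjusted p = 0.0278). In that fit 6.07% of 247 miRNAs passed, and rno-miR-211-5p took place 10 by p. Without the 3 libraries it was 0.45 ± 0.12 (edgeR adjusted p = 0.0189). That fit is no separate test, because the 3 sham libraries were left out after seeing that they were highest for these members. The call was lost without sham rat X783 (0.40, adjusted p = 0.0615) or X794 (0.41, adjusted p = 0.0503) of the 1 m group, and with libraries scaled by total count alone (0.44, adjusted p = 0.0598).

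The other 3 did not pass in their own covariate fits. rno-miR-204-5p had -0.07 ± 0.10 (edgeR adjusted p = 0.831, with 4.05% of miRNAs called), rno-miR-448-5p -0.23 ± 0.13 (0.385, 6.07% called) and rno-miR-764-5p -0.13 ± 0.11 (0.621, 6.88% called). With rno-miR-204-5p alone as the covariate, a choice made after seeing the data, rno-miR-211-5p was higher by 0.39 ± 0.08 (edgeR adjusted p = 0.00138). It took place 5 of 247 miRNAs by p, and the share called in that fit was not counted. With the same covariate, rno-miR-448-5p stood at -0.17 ± 0.13 (0.556) and rno-miR-764-5p at -0.10 ± 0.12 (0.753).

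The same shift can be restated as a ratio of the reads of the sister miRNAs, which differ by 1 base. The ratio uses the counts of the fits above and is not a second measurement. In the 28 sham libraries there were 1.47 to 3.71 reads of rno-miR-211-5p per 100 reads of rno-miR-204-5p, with a median of 2.45. In the 28 TBI libraries there were 1.79 to 7.04, with a median of 3.31. The 3 high sham libraries had 2.28, 2.33 and 2.34, inside the range of the other sham rats. The counts of both miRNAs were thus high there in their usual proportion, subject to the uncertain assignment of reads.

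At 1 m the TBI rats had 3.55, 3.31, 4.54 and 5.19 reads of rno-miR-211-5p per 100 of rno-miR-204-5p, and the sham rats 2.01, 2.33, 2.47 and 2.26. At 2 m the TBI rats had 4.26 (X747, on 4 reads beside 94), 3.94, 3.14 and 4.2, and the sham rats 2.51, 3.11, 2.44 and 2.65. At these 2 intervals all TBI rats lay above all sham rats, at 2 m by a narrow margin. The share of such separation among ratios of other miRNAs was not counted.

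At 6 m the TBI rats had 3.31, 4.55, 4.48 and 3.68, and the sham rats 3.71, 2.57, 2.56 and 2.61, with sham rat tube.53 inside the TBI range. At 1 y the TBI rats had 3.77, 3.63, 7.04 and 2.64, beside 3.17, 2.56, 2.34 and 3.19 in sham rats, and X83 had the highest value of the series. At 2 w the values were 2.85, 3.90, 2.48 and 2.60 beside 2.53, 2.33, 2.25 and 2.2. The TBI median thus lay above the sham median in 6 of 7 intervals.

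The exception was 24 h, where the TBI rats had 2.39, 2.68, 1.79 and 1.92 and the sham rats 2.41, 2.55, 1.86 and 2.38, with medians of 2.15 and 2.39. At 3 m the groups overlapped, with medians of 2.65 in TBI and 2.30 in sham rats. The ratio was looked at after the fits were known and is given with no test of its own. Whether the injury effect on rno-miR-211-5p differs between 24 h and the later intervals was covered only by the test over all intervals above, which it did not pass.

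**Figure D5:**
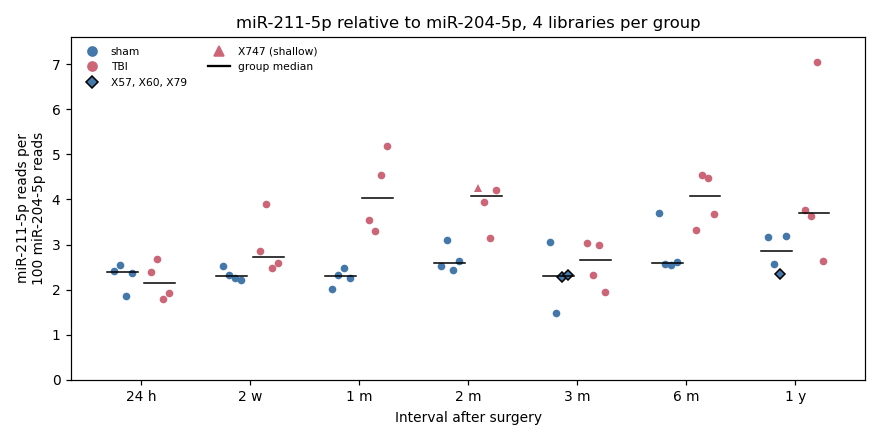
Reads of miR-211-5p per 100 reads of miR-204-5p by interval, 1 point per rat (4 per group), with the group median as a line; sham is blue and TBI red. All TBI rats lie above all sham rats at 1 m and 2 m, and the sham rats X57, X60 and X79 (diamonds) lie at 2.28 to 2.34.

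Of the cell type lists, that of leukocytes and microglia held miRNAs that passed the pooled test, 2 of its 3, where 4.51% of all miRNAs passed. Both were higher in TBI rats: rno-miR-142-5p, a miRNA of blood-derived cells and microglia, by 0.44 ± 0.06 (edgeR adjusted p = 8.66e-07) and rno-miR-223-5p, a myeloid miRNA, by 1.09 ± 0.32 (adjusted p = 0.0352). The value of rno-miR-223-5p rests on a median of 3 reads per library (0 to 61). Its injury effect also differed between intervals (edgeR adjusted p = 0.00312), so the pooled value does not describe each interval. rno-miR-150-5p, of lymphocytes, had 0.03 ± 0.06 (adjusted p = 0.894). No miRNA of the other lists passed. Their part in the value of rno-miR-211-5p with the covariate was not tested.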

How the data were processed

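Total RNA of rat hippocampus was sequenced as small RNA libraries (NEBNext Small RNA kit), and reads were counted by the authors with miRDeep2 against miRBase; base calls were made with bcl2fastq 2.20.0.422, per the submitters' processing notes. The deposited values are raw read counts per miRNA, 367 miRNAs in 56 libraries, with no normalization. The genome build and the handling of reads that match several miRNAs are not given in the sources used here. Groups came from the treatment and interval labels. Counts were filtered with filterByExpr (minimum count 10), scaled by TMM and tested with glmQLFTest in edgeR 4.0.16 (R 4.3.3), with Benjamini-Hochberg adjustment over all miRNAs tested and a threshold of 0.05. Log2 CPM used a prior count of 2. Named beside the members were miRNAs of the cell type lists and the 5 others with the highest mean r; the miRNAs at least 2-fold higher in X57, X60 and X79, and those nearest to a member, were named after their values were seen. Alternatives were DESeq2 1.42.0 and its size factors, total count scaling, no filter, a joint fit, and leaving out each rat. The members and lists were chosen with earlier results of these data known, and leaving out X57, X60 and X79 was chosen after seeing the data. RefSeq GRCr8 gave sequences, names and host genes. Replicate numbers were given in accession order and only name samples.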

Additional observations from a re-analysis of the deposited data

Results flagged for a closer look

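In 10 of 56 groups of 4 rats (14 groups for each of the 4 miRNAs), a rat lay apart from the other 3 of its group, with a gap to its nearest neighbour beyond Dixon's 95% limit for 4 values. For unrelated groups chance gives about 1 in 20, but the 4 miRNAs were chosen for varying together, so these groups are not independent and the count is a description. Of the 10, 4 were sham rat X79 at 1 y, with 18890.2 CPM of rno-miR-204-5p, 441 of rno-miR-211-5p, 31.9 of rno-miR-448-5p and 18.1 of rno-miR-764-5p. X57 and X60 are not among them because they are a pair within 1 group, so that neither is far from its nearest neighbour.

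For rno-miR-204-5p, TBI rat X769 at 1 m had 4271 CPM (others 1442 to 1884) and TBI rat X94 at 3 m had 3212 CPM (others 3948 to 4029). For rno-miR-211-5p, TBI rat X460 at 24 h had 81.2 CPM (others 39.1 to 40.7). For rno-miR-448-5p at 2 w, sham rat tube.20 had 4.30 CPM (others 7.53 to 7.64) and TBI rat tube.23 had 2.98 CPM (others 6.48 to 6.82). For rno-miR-764-5p, sham rat X777 at 2 m had 4.58 CPM (others 2.84 to 3.08).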

How the results depend on the processing

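Beside the values above, 221 of 233 recomputed values under other settings (without counting the fits that leave out a rat) kept their direction and side of the threshold, and so did 980 fits that leave out a rat, with 24 that did not; the cause of the changes was not tested. Of the recomputed r between the members, 27 moved by more than 0.1 and 27 did not. For rno-miR-204-5p at 1 m, total count scaling gave -0.10, no filter -0.059 and the joint fit -0.051. Without X57, X60 and X79 (chosen after seeing the data), rno-miR-204-5p, rno-miR-211-5p and rno-miR-448-5p had 0.30, 0.41 and 0.13 at 3 m, and pooled rno-miR-211-5p had 0.37. The edgeR adjusted p of the interval effect in sham rats was then 0.139, 0.380 and 0.150 for the same 3. rno-miR-211-5p with the covariate was 0.44 under total count scaling (edgeR adjusted p = 0.0598), and the interval effect of rno-miR-764-5p had an adjusted p of 0.0395 in DESeq2.

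Leaving out each rat, rno-miR-204-5p ran from -0.67 to 0.15 (24 h), -0.28 to 0.031 (2 w), -0.52 to 0.39 (1 m) and -0.17 to 0.043 (6 m). rno-miR-211-5p ran from -1.29 to 0.29 (1 y), -0.15 to 0.11 (pooled) and 0.40 to 0.51 (with the covariate). rno-miR-448-5p ran from -0.19 to 0.24 (24 h), -0.37 to 0.81 (2 m) and -0.57 to 0.044 (6 m), with an edgeR adjusted p of the interval effect from 0.0100 to 0.0641. rno-miR-764-5p ran from -0.20 to 0.35 (2 w) and -0.99 to 0.064 (1 y).

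Counts of called miRNAs moved by over 1.5 times at 24 h (4, joint fit 8), 2 w (0, DESeq2 7, joint fit 4), 1 m (1, no filter 2, DESeq2 5, joint fit 37), 2 m (0, DESeq2 1, joint fit 2), 3 m (0, DESeq2 1), pooled (11, total count 5), by interval (7, DESeq2 11) and between sham intervals (65, without the 3 libraries 34). A number after S in the titles is shared by 2 libraries each, of the same group for 24 numbers and of 1 sham and 1 TBI rat for the 4 numbers at 1 y; the labels do not say what it marks or which libraries were sequenced together. At 1 y the deviations of libraries that share it had r from -0.17 to 0.33 over 244 miRNAs. So few values cannot settle whether the number pairs them. With it as a replicate block (chosen after seeing the data) the 4 miRNAs had -0.87, -0.49, -0.94 and -0.56, and none passed. At the other intervals no number joins sham and TBI rats. Depth limits rno-miR-448-5p and rno-miR-764-5p most, with medians of 33.5 and 26 reads.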
